A study of Mus musculus with 8 samples.

Results

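Alveolar type 1 (AT1) cells are the thin, flat epithelial cells that cover most of the gas exchange surface of the lung. They lie against capillaries on a shared basement membrane, and they both move water and ions across the alveolar wall and supply signals to the neighbouring vessels. AT1 cells arise from alveolar type 2 (AT2) cells, the cuboidal surfactant makers, when the alveolus is repaired, and the factors NKX2-1 and YAP/TAZ with TEAD maintain their identity. The genes described here are 10 that mark AT1 cells in mouse lung, namely Ager, Hopx, Pdpn, Aqp5, Cav1, Cav2, Rtkn2, Akap5, Clic5 and Igfbp2. They were taken by gene symbol, 1 row each, from a table of 54532 genes, and all 10 were among the 17138 genes with enough counts to be tested.

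The RNA came from whole lungs of CC-LR mice, in which Cre driven by the club cell secretory protein gene switches on a K-ras G12D allele in airway secretory cells and their descendants, so that lung tumours form. Both groups carried these alleles. The lungs were sequenced at 14 weeks of age, 1 library per mouse, from 4 Control mice and 4 mice given TTI-101, a small molecule that inhibits STAT3, over the preceding 4 weeks. The sources used here do not say by which route, at what dose or against which vehicle these 8 mice were treated. The comparison asks how the lung transcriptome differs when STAT3 is inhibited while tumours develop.

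Library totals ran from 16075855 to 26873509 assigned read counts. Control mouse 4 stood apart from the other 7 libraries before any gene was considered. It lay at 101 on the first principal component, which held 45.2% of the variance, against -39.3 to 17.9 for the others, and mitochondrial genes took 5.56% of its counts against 2.01 to 2.85% elsewhere. Xist, which is transcribed from the inactive X chromosome, was between 400.2 and 450 CPM (counts per 1000000 assigned reads) in mice 1 and 2 of each group and at most 2.11 CPM in mice 3 and 4, so both sexes were present in equal number in each group. In whole-lung RNA, fewer cells of a type and less RNA per cell cannot be told apart, and this holds for every level given below.

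The members lie on 8 chromosomes, and only Cav1 and Cav2 are neighbours. In the mm10 assembly Cav2 spans chr6:17281185-17289115 and Cav1 spans chr6:17306335-17341452, both on the plus strand. Ager is at chr17:34597862-34600936, Clic5 at chr17:44188584-44280172, Hopx at chr5:77086988-77115121 on the minus strand, Pdpn at chr4:143267431-143299564 on the minus strand, Aqp5 at chr15:99590782-99594829, Rtkn2 at chr10:67979570-68059740, Akap5 at chr12:76324891-76334153 and Igfbp2 at chr1:72824503-72852474. Exons of Hopx overlap those of the antisense gene Hopxos by at most 388 bases, and exons of Rtkn2 overlap those of Gm16212 on the opposite strand by at most 109 bases. Hopxos had 20 to 80 counts per library and Gm16212 had 0 to 7, and the strand setting of the counting is not given in the sources used here.

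Because TTI-101 acts on STAT3, a transcription factor, the start regions of the members are shown next. RefSeq start windows on GRCm38.p6, each 300 bases long with 250 bases before and 50 after an annotated start, matched 9 of the 10 members and gave 12 windows. Of these, 4 are printed 5′ to 3′ on the strand of the gene. Ager was the member with the highest level, Cav1 varied widely between lungs, Aqp5 was the member whose difference had the opposite sign, and the Hopx window holds a motif match, which is in capitals. The windows lie at chr17:34597600-34597899 for Ager, chr6:17306085-17306384 for the upstream Cav1 start, chr15:99590778-99591077 for Aqp5 and chr5:77115074-77115373 on the minus strand for the upstream Hopx start. The Aqp5 window belongs to an annotated start inside the gene, which begins at chr15:99590782. The stretch before that position was therefore hardly covered for Aqp5.
Ager: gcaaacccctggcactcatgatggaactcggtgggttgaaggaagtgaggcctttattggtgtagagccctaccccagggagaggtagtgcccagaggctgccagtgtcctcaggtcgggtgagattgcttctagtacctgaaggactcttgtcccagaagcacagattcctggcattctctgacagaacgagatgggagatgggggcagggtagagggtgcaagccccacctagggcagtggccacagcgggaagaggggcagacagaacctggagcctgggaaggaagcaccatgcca
Cav1: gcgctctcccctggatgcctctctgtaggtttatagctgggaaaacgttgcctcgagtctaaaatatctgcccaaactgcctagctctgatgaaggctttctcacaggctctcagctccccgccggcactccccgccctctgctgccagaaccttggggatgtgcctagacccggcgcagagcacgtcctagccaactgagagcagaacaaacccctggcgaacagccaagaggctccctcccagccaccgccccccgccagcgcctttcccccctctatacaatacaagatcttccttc
Aqp5: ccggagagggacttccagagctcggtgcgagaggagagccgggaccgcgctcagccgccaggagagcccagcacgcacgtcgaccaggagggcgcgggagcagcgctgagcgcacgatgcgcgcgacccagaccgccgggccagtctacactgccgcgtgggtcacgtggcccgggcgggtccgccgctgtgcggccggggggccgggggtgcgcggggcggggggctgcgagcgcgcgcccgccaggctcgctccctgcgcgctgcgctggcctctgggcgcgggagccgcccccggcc
Hopx: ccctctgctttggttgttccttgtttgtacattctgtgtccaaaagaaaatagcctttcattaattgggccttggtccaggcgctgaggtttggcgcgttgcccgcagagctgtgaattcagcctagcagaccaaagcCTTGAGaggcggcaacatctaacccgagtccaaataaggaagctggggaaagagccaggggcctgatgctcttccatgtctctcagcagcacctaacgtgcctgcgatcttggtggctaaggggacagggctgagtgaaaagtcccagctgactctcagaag

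A palindromic STAT motif, TTCNNNGAA, was searched on both strands and occurred in none of the 12 member windows, while 8.298% of 32851 start windows of the same length across the genome held it. The TEAD motif GGAATG was also in 0 of 12 member windows, against 14.66% of all windows. The NKX2-1 motif CTCAAG was in 3 of 12 windows, against 15.9% of all windows. These 3 were both Hopx windows, with the match starting at base 139 in the printed one and at base 287 in the downstream one, and the downstream Igfbp2 window, at base 210. In the printed Hopx window the motif reads on the opposite strand, as CTTGAG. The windows differed in base composition, with GC content from 48.7% for Pdpn to 79.7% for Aqp5, and 58.3% for Ager. A match describes letters in these windows only, and the other stretches that regulate these genes were not searched.

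No member passed the test between the groups. With edgeR's quasi-likelihood test and Benjamini-Hochberg adjustment over all tested genes, 0 of 10 members had an adjusted p under 0.05, where the background over all 17138 genes was 0 genes, or 0%. At an unadjusted p under 0.05 there were again 0 of 10 members, against 6.61% of all genes, split into 3.02% on the higher side and 3.58% on the lower side in TTI-101. In none of the 10 did the 4 TTI-101 lungs all lie on one side of the 4 Control lungs, which was so for 2.96% of all genes. In mean, 9 members were higher in TTI-101 and Aqp5 was lower. The median log2 difference of the 10 was 0.43, against 0.0034 over all tested genes, of which 50.6% were higher. Without Control mouse 4, 8 members were higher and 2 lower, and the median was 0.23.

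**Figure D1:**
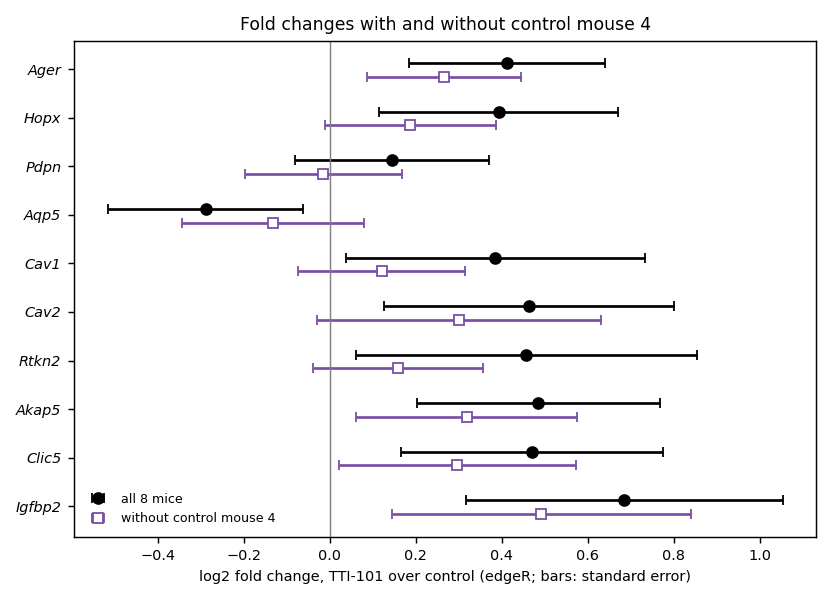
Log2 difference between TTI-101 and Control for each of the 10 AT1 genes (horizontal axis, log2 scale), as fitted by edgeR with all 8 libraries (filled circles) and again without Control mouse 4 (open squares), with bars of 1 standard error. With all 8 libraries the values run from Aqp5 at -0.29 to Igfbp2 at 0.68, and without that mouse each lies nearer to 0.

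On a scale that divides counts by gene length (TPM, scaled so that all genes of a library sum to 1000000), Ager had the highest level of the members in Control lungs, at 1637 ± 502 (SD, n = 4). Cav1, far below it, followed at 577 ± 289, Hopx at 564 ± 219 and Aqp5 at 491 ± 74.3 TPM, and the SDs of these 3 were larger than the gaps between neighbours. Igfbp2 was at 240 ± 87.0, Cav2 at 204 ± 115, Clic5 at 156 ± 64.1 and Pdpn at 142 ± 50.7 TPM, again within each other's spread. Akap5 at 70.9 ± 28.0 and Rtkn2 at 57.7 ± 31.9 TPM were lowest. In TTI-101 lungs Ager was again first, at 2375 ± 413 TPM, and Akap5 at 110 ± 44.4 and Rtkn2 at 85.9 ± 23.5 TPM were again last. The AT1 genes were thus detected in every lung, and the smallest count of any member in any library was 540, for Rtkn2 in Control mouse 4. Together the 10 genes took 0.527, 0.502, 0.464 and 0.261% of all counts in Control mice 1 to 4 and 0.599, 0.453, 0.650 and 0.591% in TTI-101 mice 1 to 4.

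**Figure D2:**
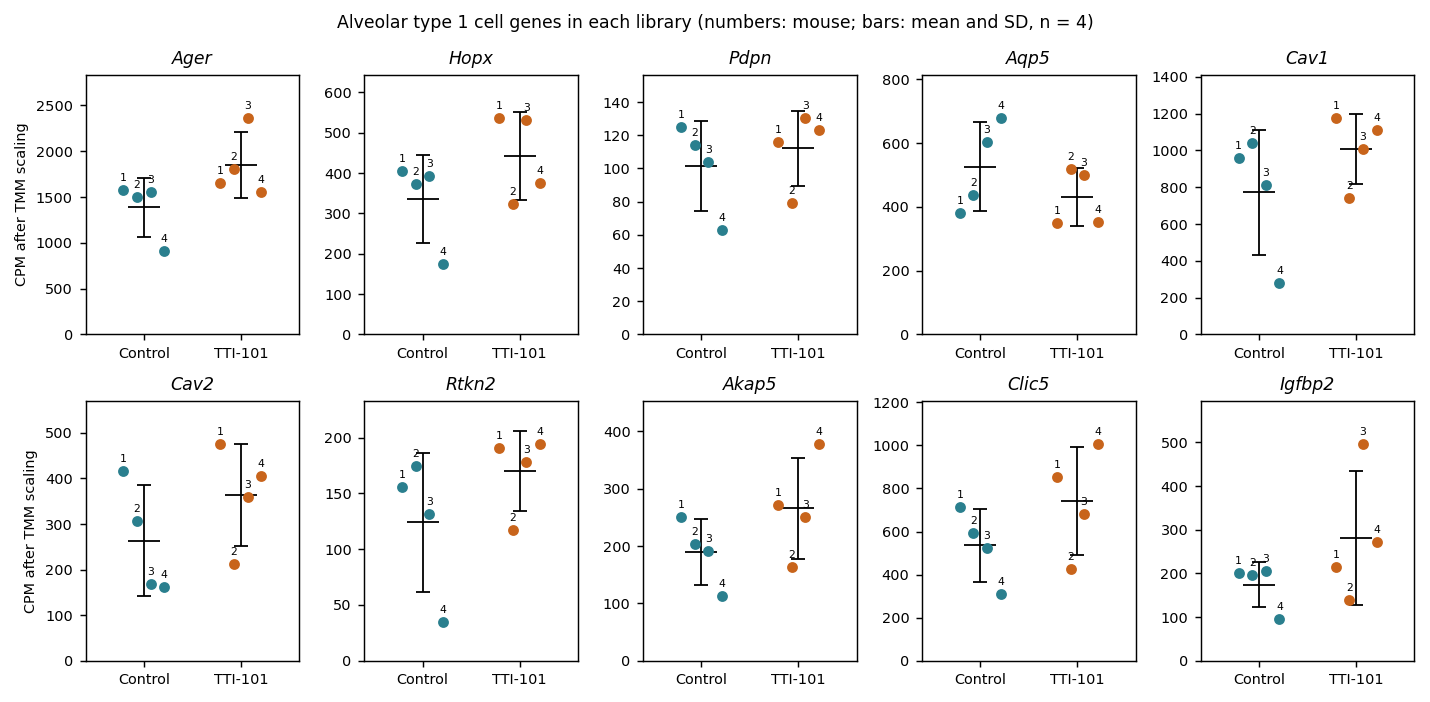
CPM of each AT1 gene (vertical axis, 1 panel per gene, linear scale) in the 4 Control and 4 TTI-101 lungs, 1 point per mouse labelled by its number, with the group mean and SD. Control mouse 4 is the lowest point in 9 panels and the highest in the Aqp5 panel.

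Surface proteins of AT1 cells come first. Ager encodes RAGE, a membrane receptor of the immunoglobulin family that is far more abundant in AT1 cells than elsewhere in the body. Its level was 1582, 1496, 1558 and 913 CPM in Control mice 1 to 4 and 1658, 1807, 2365 and 1557 CPM in TTI-101 mice 1 to 4. The first 3 Control lungs were close together and Control mouse 4 was well below them, while TTI-101 mouse 3 was well above its group. The means were 1387 ± 318 and 1847 ± 360 CPM (SD, n = 4 each), a log2 difference of 0.41 with a 95% interval from -0.09 to 0.92 (edgeR adjusted p = 0.657). The 2-sided exact permutation test over 70 assignments of the mice gave p = 0.0857, where the smallest value this design allows is 0.0286. The Ager difference was 0.27 without Control mouse 4 and also 0.27 without TTI-101 mouse 3.

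Pdpn encodes podoplanin, a mucin-type membrane glycoprotein of AT1 cells that lymphatic endothelium and mesothelium also carry. It was at 125, 114, 104 and 62.9 CPM in Control and 116, 79.1, 130 and 123 CPM in TTI-101 lungs. The lowest lungs were 1 from each group, Control mouse 4 and TTI-101 mouse 2, and the rest overlapped. The log2 difference was 0.14, with an interval from -0.36 to 0.65 (edgeR adjusted p = 0.853), the smallest among the members. It was -0.015 when Control mouse 4 was left out, 0.064 without TTI-101 mouse 3, 0.26 without Control mouse 1 and 0.29 without TTI-101 mouse 2.

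Aqp5 encodes aquaporin 5, the water channel of the apical AT1 membrane, which airway glands and some secretory cells also make. It was the only member that was highest, not lowest, in Control mouse 4. Its CPM values were 382, 437, 604 and 679 in Control mice and 350.2, 518, 500.0 and 353 in TTI-101 mice. TTI-101 mouse 1 lay below every Control lung, and so did TTI-101 mouse 4, while the other two lay within the Control range. TTI-101 minus Control came to -0.29 on the log2 scale, with an interval from -0.79 to 0.22 (edgeR adjusted p = 0.708), and it was -0.13 without Control mouse 4. The range over the 8 lungs was narrower than for any other member, with 1.94 times between the lowest and the highest.

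The caveolins coat the flask-shaped membrane pits that crowd the surface of AT1 cells and, even more, of endothelial cells, so neither gene is specific to the epithelium. Cav1 was at 957, 1039, 815 and 281 CPM in Control lungs and 1177, 744, 1008 and 1111 CPM in TTI-101 lungs. Control mouse 4 had 0.300 times the mean of the other 3 Control lungs, and the remaining 7 values overlapped. The log2 difference was 0.39, with an interval from -0.38 to 1.16 (edgeR adjusted p = 0.742), and it was 0.12 without that mouse. Cav2, its partner in the oligomeric coat, was at 417, 306, 168 and 162 CPM in Control and 475, 211, 359 and 406 CPM in TTI-101 lungs. Here Control mouse 3 was almost as low as mouse 4, and Control mouse 1 was above 3 of the 4 TTI-101 lungs. TTI-101 lungs were higher by 0.46 on the log2 scale, from -0.28 to 1.21 (edgeR adjusted p = 0.694). Leaving out Control mouse 3, Control mouse 4 or TTI-101 mouse 1 lowered it to 0.30, 0.30 and 0.31. It was 0.78 without Control mouse 1, where Cav2 reached an unadjusted p under 0.05 along with 13.7% of all genes.

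Hopx encodes a small homeodomain protein that binds no DNA itself and marks AT1 cells as they form. Its CPM values were 406, 374, 392 and 174 in Control mice and 537, 323, 532 and 375 in TTI-101 mice. TTI-101 mice 1 and 3 were above every Control lung and the other two were not. The log2 difference was 0.39, with an interval from -0.22 to 1.01 (edgeR adjusted p = 0.687), and 0.19 without Control mouse 4.

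Rtkn2 and Akap5 encode intracellular signalling proteins, and Akap5 anchors protein kinase A at the membrane. Rtkn2 was at 155, 174, 132 and 34.5 CPM in Control and 191, 117, 178 and 194 CPM in TTI-101 lungs. Its Control mouse 4 value was 0.225 times the mean of the other Control lungs, and the range over the 8 lungs, 5.62 times, was the widest of the 10. Its log2 difference was 0.46, from -0.42 to 1.34 (edgeR adjusted p = 0.735), and 0.16 without Control mouse 4. Akap5 was at 251, 204, 192 and 113 CPM in Control and 272, 164, 250.1 and 378 CPM in TTI-101 lungs. Only TTI-101 mice 1 and 4 were above every Control lung. For Akap5 it was 0.49, from -0.14 to 1.11 (edgeR adjusted p = 0.657), 0.32 without Control mouse 4, 0.27 without TTI-101 mouse 4 and 0.68 without TTI-101 mouse 2.

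Clic5 encodes a protein of the chloride intracellular channel family that also binds the cortical actin network, and Igfbp2 encodes a secreted binding protein for insulin-like growth factors that marks mature AT1 cells. Clic5 was at 716, 593, 522 and 310 CPM in Control lungs and 855, 424, 682 and 1006 CPM in TTI-101 lungs. TTI-101 mice 1 and 4 were above every Control lung, and TTI-101 mouse 2 was below Control mice 1 to 3. The log2 difference was 0.47, with an interval from -0.20 to 1.14 (edgeR adjusted p = 0.668), 0.30 without Control mouse 4, 0.29 without TTI-101 mouse 4 and 0.68 without TTI-101 mouse 2. Igfbp2 had the largest difference of the members. It was at 200.4, 196, 205 and 96.1 CPM in Control and 215, 139, 496 and 272 CPM in TTI-101 lungs. TTI-101 mouse 3 was far above all others, and TTI-101 mouse 2 was below Control mice 1 to 3. The log2 difference of 0.68 had an interval from -0.13 to 1.5 (edgeR adjusted p = 0.657), and it was 0.26 without TTI-101 mouse 3 and 0.92 without TTI-101 mouse 2. The exact permutation p was 0.286. With TTI-101 mouse 2 left out, Akap5, Clic5 and Igfbp2 reached an unadjusted p under 0.05, as did 14.2% of all genes.

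Across members, the same lungs kept recurring. Control mouse 4 was the lowest of the 8 for 9 of 10 members, a place it held for 28.7% of all tested genes, and the highest for Aqp5, as for 24.8% of all genes. TTI-101 mouse 1 was above every Control lung in 8 members, against 22.6% of all genes, TTI-101 mice 3 and 4 in 5 members each, against 26.6 and 23.1%, and TTI-101 mouse 2 in 1 member, against 20.2%. TTI-101 mouse 2 lay below Control mice 1 to 3 in 7 members, against 26.3% of all genes. The mean log2 CPM of the 10 members was 8.58, 8.49, 8.36 and 7.49 in Control mice 1 to 4 and 8.73, 8.18, 8.85 and 8.76 in TTI-101 mice 1 to 4.

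Pairs of members were then compared across lungs by Pearson's r of log2 CPM. Since Control mouse 4 stood apart, r was read over the other 7 lungs. These relations were computed after the levels had been seen, over all 45 pairs, with exact permutation p-values and Benjamini-Hochberg adjustment. Over the 7 lungs, 2 pairs had an adjusted p under 0.05, against 28 with Control mouse 4 included. Cav1 and Rtkn2 had r = 0.98 (exact permutation p = 0.000794, adjusted p = 0.0179) and Spearman's rho = 0.93 (exact permutation p = 0.00675, adjusted p = 0.0791), and r = 0.89 without the 2 lungs farthest from the Cav1 median. Akap5 and Clic5 had r = 0.98 (exact permutation p = 0.000198, adjusted p = 0.00893) and rho = 1.00 (exact permutation p = 0.000397, adjusted p = 0.0179), and r = 0.96 without the 2 lungs farthest from the Akap5 median. Without Control mouse 4, the 36 pairs that leave out Aqp5 ran from -0.11 to 0.98 with a median of 0.66, and the 9 pairs of Aqp5 ran from -0.90 to 0.30 with a median of -0.74. Ager and Cav1 had r = 0.77 over 8 lungs and -0.08 over 7. All values in a lung share its library and its tissue piece, and the permutation p compares each pair only with unrelated values. The share of pairs over all tested genes with an r this high was not computed. How unusual these 2 pairs are in these lungs is therefore not known.

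**Figure D3:**
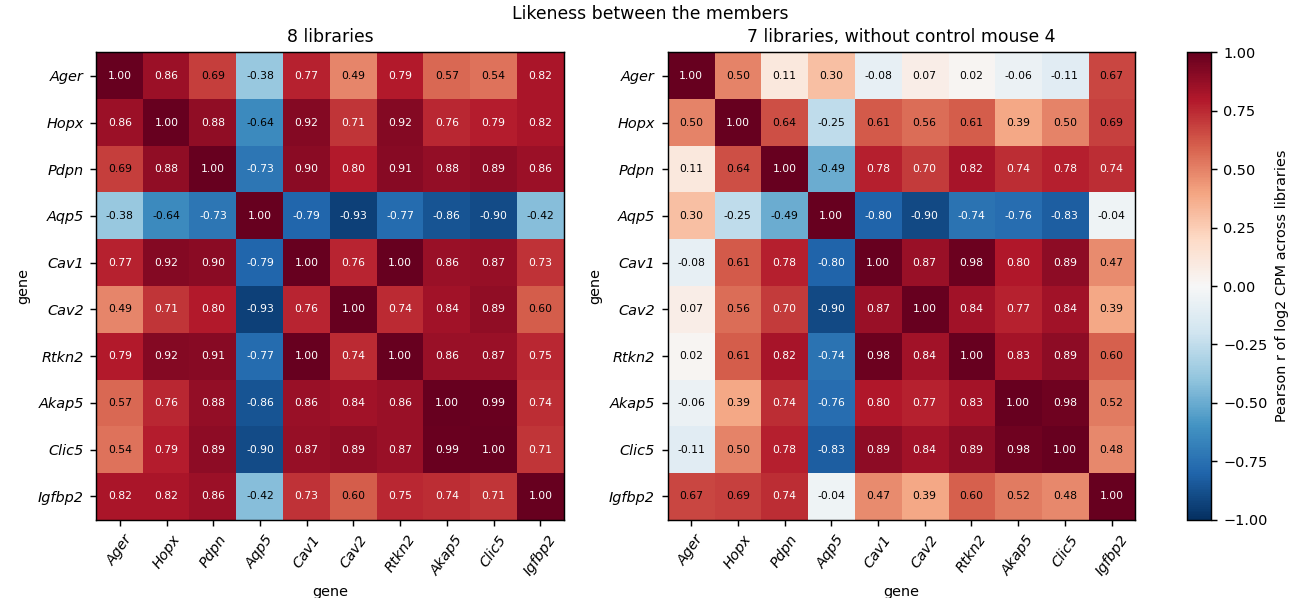
Pearson's r of log2 CPM between each pair of the 10 AT1 genes (colour, from -1 to 1), over all 8 lungs and over the 7 lungs without Control mouse 4. Aqp5 is negative with all 9 others over 8 lungs, from -0.93 to -0.38, and the positive block of the others has a median of 0.82 over 8 lungs and 0.66 over 7.

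The other genes of the AT1 cell were described from lists. Each list is to be read beside the 6.61% of all tested genes at an unadjusted p under 0.05. Among 14 further AT1 genes, 0 were under an unadjusted p of 0.05 in either direction, 11 were higher and 3 lower in mean, and the median log2 difference was 0.28, against 0.0034 over all genes. The lowest p-values were those of Vegfa, the growth factor through which AT1 cells signal to capillaries, with a log2 difference of 0.49 (edgeR adjusted p = 0.657), Limch1, an actomyosin regulator, with 0.61, and Emp2, a tetraspan membrane protein, with 0.61. Vegfa was at 832, 765, 703 and 450.3 CPM in Control and 988, 713, 1083 and 1070 CPM in TTI-101 lungs. Again 3 TTI-101 lungs were above every Control lung, and TTI-101 mouse 2 was not.

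At an unadjusted p under 0.05, 3.02% of all tested genes were higher in TTI-101 and 3.58% lower. Of 13 regulators of AT1 identity and YAP/TAZ targets, 0 were higher and 1 lower at that p, with a median difference of 0.27. The lower gene was Klf5, a transcription factor of the lung epithelium, with a log2 difference of -0.49 (edgeR adjusted p = 0.657). It was at 48.1, 52.4, 60.0 and 92.5 CPM in Control and 44.5, 48.8, 40.9 and 46.4 CPM in TTI-101 lungs, so that Control mouse 4 was far above the rest. The YAP/TAZ targets Amotl2 and Cyr61 had differences of 0.52 and 0.61 without reaching that p. Nkx2-1 itself had a difference of -0.25 and Yap1 of -0.08, both chosen for naming after their values were seen.

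The genes around the caveolins and the basement membrane gave no call. Of 7 other caveola genes, 0 were under an unadjusted p of 0.05, with a median difference of 0.20, and the lowest p-values belonged to Ehd2 at 0.44, Cavin2 at 0.73 and Cavin1 at 0.28. Of 8 alveolar basement membrane genes, 0 were under that p, with a median of 0.36, and Lama3 at 0.62, Col4a3 at 0.76 and Npnt at 0.65 came first. Cavin2, a coat protein of caveolae, was at 644, 439, 289 and 151 CPM in Control and 810, 248, 686 and 775 CPM in TTI-101 lungs, with Control mouse 4 lowest and TTI-101 mouse 2 next.

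Aqp5 was set beside 8 other genes of alveolar fluid transport, with a median of -0.21. Of these, 0 were higher and 1 lower at an unadjusted p under 0.05, against 3.02 and 3.58% of all genes. The lower one was Atp1b1, the beta subunit of the sodium pump, with a log2 difference of -0.65 (edgeR adjusted p = 0.657). It was at 585, 653, 597 and 983 CPM in Control and 435, 619, 341 and 398 CPM in TTI-101 lungs. Control mouse 4 was the highest, as it was for Aqp5. Aqp4 had a difference of -0.81 at 4.48 to 18.2 CPM, and Aqp1, the water channel of endothelium, had 0.67 at 171 to 950.4 CPM.

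Ligands of RAGE and the insulin-like growth factor axis were read beside Ager and Igfbp2. Of 7 RAGE ligands 6 were tested, S100a4 being too low, and 0 were under an unadjusted p of 0.05, with a median of -0.20. In mean 2 were higher and 4 lower. S100a11 had a log2 difference of -0.42, Hmgb1 of -0.24 and S100b of -0.81. S100a8 at 0.81 and S100a9 at 0.88, both named after their values were seen, were the higher ones. Of 9 genes of the insulin-like growth factor axis 8 were tested, Igf2 being too low, with a median of 0.14. At an unadjusted p under 0.05, where 3.02% of all genes were higher and 3.58% lower, 1 was higher and 0 lower. That gene was Igfbp3, another secreted binding protein, at 106, 111.5, 70.2 and 76.4 CPM in Control and 134, 106, 143 and 160.1 CPM in TTI-101 lungs, a log2 difference of 0.58 (edgeR adjusted p = 0.657). Igfbp6 had a difference of 0.50 and Igfbp4 of 0.31.

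Markers of other lung cells were read in the same lungs, and no list had a gene with an edgeR adjusted p under 0.05. At an unadjusted p under 0.05, 3.02% of all tested genes were higher in TTI-101 and 3.58% lower. Endothelial markers summed to 2822, 2994, 2715 and 1112 CPM in Control and 3540.0, 2523, 4226 and 4080 CPM in TTI-101 lungs, with Control mouse 4 lowest and TTI-101 mouse 2 next, as for 7 of the members. All 8 endothelial genes were higher in mean in TTI-101, with a median difference of 0.54, and 1 of them, Emcn at 0.49, had an unadjusted p under 0.05. Aerocyte markers had a median of 0.48 with 1 of 5 higher at that p, Apln at 0.70, and general capillary markers a median of 0.52 with 1 of 5, Plvap at 0.78. Mesothelial, fibroblast, leukocyte and lymphatic markers had medians of 0.69, 0.46, 0.45 and 0.35, and among the genes of these lists only Cd79a was under that p, with a log2 difference of 1.32. Lymphatic markers went both ways, with 3 of 5 higher in mean and 2 lower, down to -0.83 for Ccl21a. Of 5 red cell genes 4 were higher at that p, with a median of 2.50, and their order among lungs was not that of the members. They summed to 125, 58.0, 80.7 and 264 CPM in Control and 1586, 205, 430.4 and 624 CPM in TTI-101 lungs, so that Control mouse 4 was the highest Control lung.

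The medians of the other epithelial lists had the opposite sign. The share of all tested genes that were lower at an unadjusted p under 0.05 was 3.58%. AT2 markers summed to 50116, 42438, 50436 and 75644 CPM in Control and 36598, 60237, 33304 and 33435 CPM in TTI-101 lungs, so Control mouse 4 was the highest and TTI-101 mouse 2 the next. All 9 AT2 genes were lower in mean in TTI-101, with a median of -0.40, and 0 had an unadjusted p under 0.05. Transitional epithelial markers, which AT2 cells switch on while turning into AT1 cells, had a median of -0.71, and 3 of 7 were lower at that p, Areg at -1.23, Krt18 at -0.90 and Krt8 at -0.71. Club cell markers had a median of -0.68, with 2 of 5 lower at that p, Cbr2 and Scgb1a1. Scgb3a1 went the other way, with a difference of 0.64 that did not reach it, at 1533 CPM in TTI-101 mouse 2 and 116 to 513 CPM in the other lungs. Ciliated cell markers had a median of -0.65, with 2 of 6 lower at that p, Ccdc39 and Dnah5. The defining markers of each list were above 0 in every library, and the part that the makeup of the tissue pieces had in the members' levels was not tested.

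The lists were also read without Control mouse 4, an alternative chosen after seeing the data, in which 3.03% of all genes were at an unadjusted p under 0.05 in place of 6.61%. The endothelial median was then 0.31 with 0 of 8 at that p, the aerocyte median 0.25 with 0 of 5, and the general capillary median 0.30 with 1 of 5 higher, Plvap at 0.54. Mesothelial, fibroblast and lymphatic medians were 0.35, 0.25 and 0.075 with 0 genes at that p. The leukocyte median was 0.28 with 1 of 6 higher, Cd79a at 1.10, and all 5 red cell genes were higher at that p, with a median of 3.12. Among epithelial lists, the AT2 median was -0.19 with 0 of 9, the transitional median -0.35 with 0 of 7, the ciliated median -0.37 with 0 of 6, and the club median -0.54 with 1 of 5 lower, Cbr2 at -0.69. Of the lists around the members, the further AT1 genes had a median of 0.23, the regulators 0.17, the caveola genes 0.011, the basement membrane genes 0.28, the fluid transport genes -0.057 and the RAGE ligands -0.18, each with 0 genes at that p. The insulin-like growth factor axis had a median of 0.075 with 1 of 8 higher, Igfbp3 at 0.51. Klf5 stood at -0.23 (SE 0.14) and Atp1b1 at -0.44 (SE 0.20) without that mouse, neither at that p.

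**Figure D4:**
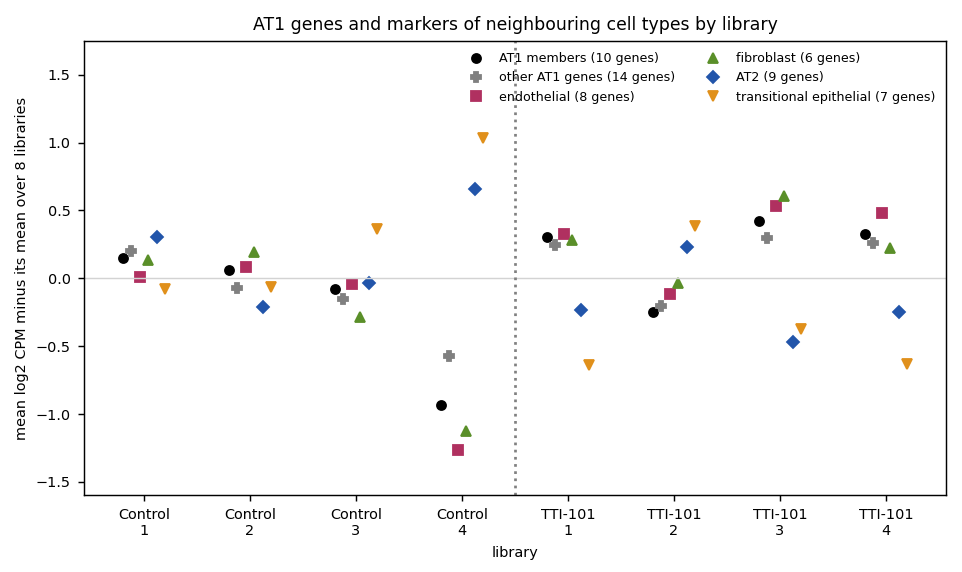
Mean log2 CPM of 6 gene lists in each of the 8 lungs, each list centred on its own mean over the lungs (vertical axis, log2 units), 1 point per list and library. The AT1 and endothelial lists share their lowest lung, Control mouse 4, where the AT2 list is highest.

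The members' spread was also measured relative to 4 of these lists, as a description. Alone, log2 CPM of Cav1 had an SD of 0.67 over the 8 lungs. It was 0.20 after the mean of the 8 endothelial markers was subtracted, 0.26 after that of the 6 fibroblast markers, 0.42 after that of the 14 further AT1 genes and 0.99 after that of the 9 AT2 markers. Over the 8 lungs, for the 9 members other than Aqp5, each of the first 3 lists gave a narrower spread than the gene alone. The AT2 markers gave a wider one. Control mouse 4 was the lowest lung for these 9 genes and those 3 lists, and the highest for the AT2 markers. The SDs were not computed without that mouse, but the range over the remaining lungs can be read for the endothelial list. Ager then ran from 10.55 to 11.21 in log2 CPM alone and from 1.98 to 2.80 relative to the endothelial markers, a wider range. Cav1 ran from 9.54 to 10.20 alone and from 1.30 to 1.80 relative to them, a narrower range. Of these 9 genes, only Ager had a wider range relative to the endothelial markers than alone. Which list gave the narrowest spread differed by gene. It was the endothelial list for Cav1, Rtkn2 (0.31 against 0.82 alone) and Igfbp2, the fibroblast list for Ager (0.25 against 0.38) and Hopx (0.21 against 0.51), and the further AT1 genes for Pdpn (0.14 against 0.37), Cav2, Akap5 and Clic5. For Hopx, Akap5 and Clic5 the endothelial list was almost as narrow, at 0.22, 0.26 and 0.28. For Ager the further AT1 genes were almost as narrow as the fibroblast list, at 0.255 against 0.248. Aqp5 had a spread of 0.36 alone and 0.36 relative to AT2 markers, against 0.86 relative to endothelial markers, 0.81 relative to fibroblast markers and 0.63 relative to the further AT1 genes. Relative to the endothelial markers, the TTI-101 minus Control difference ran from -0.89 for Aqp5 to 0.05 for Rtkn2. Aqp5 relative to them was at 2.54 in Control mouse 4, against 0.43, 0.55 and 1.14 in Control mice 1 to 3.

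**Figure D5:**
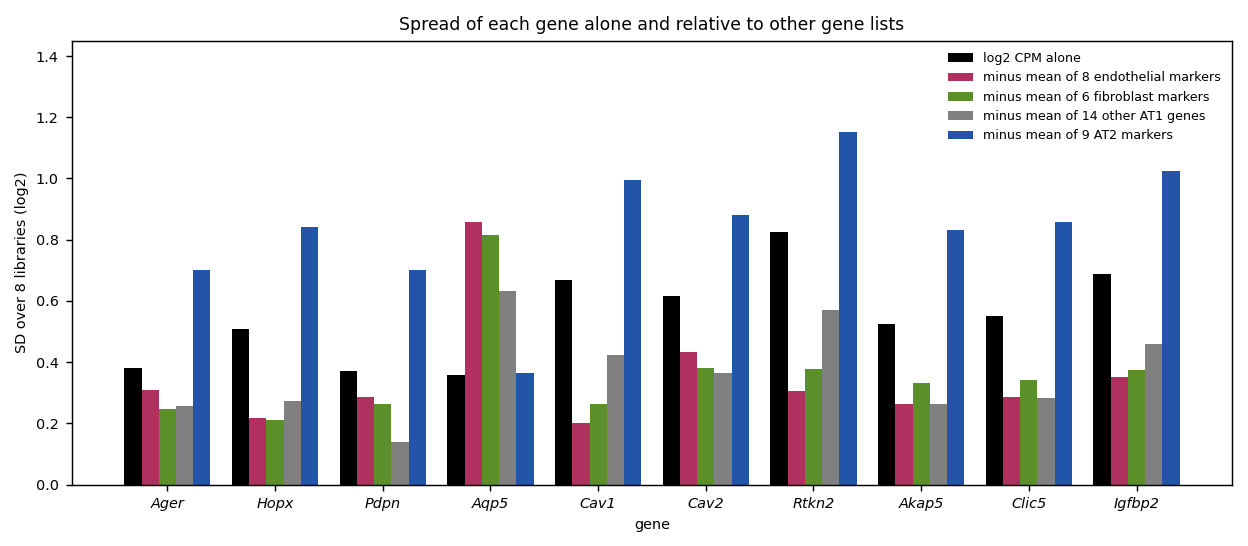
SD over the 8 lungs of log2 CPM of each AT1 gene (vertical axis, log2 units), alone and after subtracting the mean log2 CPM of the endothelial, fibroblast, further AT1 or AT2 list, 1 group of bars per gene. For 9 genes the spread is narrower relative to the endothelial, fibroblast and further AT1 lists than alone, as for Cav1 at 0.20, 0.26 and 0.42 against 0.67, and for Aqp5 it is wider, up to 0.86. All SDs include Control mouse 4. Over the remaining lungs, the range of Ager was wider relative to the endothelial list than alone.

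The tested genes outside the 10 whose levels followed the members' mean most closely over the 8 lungs were Aqp1 (Pearson's r = 0.996), Clec14a (0.994), Pecam1 (0.993), Trpc6 (0.993) and Ehd4 (0.992), with r between 0.976 and 0.989 when Control mouse 4 was left out. Pecam1 and Clec14a are endothelial surface proteins. The genes closest to Ager alone were Pdlim2 (0.990), Fgfrl1 (0.983) and Chst14 (0.982), with r of 0.970, 0.954 and 0.940 without Control mouse 4. Those closest to Aqp5, a search added after its values were seen, were Gpx2 (0.986), Gm12338 (0.985) and Rps19bp1 (0.982). Without Control mouse 4 their r was 0.981, 0.985 and 0.975. The values over the 8 lungs are the highest out of all tested genes and carry no p.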

How the data were processed

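RNA was extracted from frozen whole lungs of 4 Control and 4 TTI-101 mice, and poly(A) libraries were prepared with a stranded kit and sequenced as read pairs by the provider. Per the paper's methods, mice whose lungs were frozen for RNA had their airways lavaged with buffered saline. Their lungs were then perfused with it through the right ventricle. The authors deposited raw read counts per gene, with gene length and coordinates. Per the labels, the processing named STAR, DESeq2 and the mm10 build, and versions, the counting tool and its strand setting are not given in the sources used here. Groups came from the sample labels, and 0 columns of per-sample values were left out. Totals per library set the counting error, which is small for the members (540 to 44008 counts) beside the spread between mice.

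The deposited counts were filtered with filterByExpr (minimum count 10), scaled by TMM and tested with edgeR 4.0.16 in R 4.3.3 (quasi-likelihood F-test, robust, no covariate), with Benjamini-Hochberg adjustment over all tested genes and a threshold of 0.05. CPM used the same factors, and log2 CPM a prior count of 2. Length-scaled TPM used the deposited gene length. Intervals are 95%. The script was tested on simulated data. Alternatives were DESeq2 1.42.0, limma-voom 3.58.1, other scalings and filters, a replicate block, an Xist covariate and leaving out each library. The p-values treat each mouse as 1 replicate.

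All 10 members were named. Of every other list, counts were given and up to 3 genes with the lowest p named, together with the 5 genes most like the members' mean and the 3 most like Ager. The members and lists were chosen with earlier results of these data known, so no list is independent evidence. Promoter windows came from RefSeq. Where Ccl21a had 2 rows, that with more counts was used.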

Additional observations from a re-analysis of the deposited data

Results flagged for a closer look

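For each member and each gene list, the distance of the highest or lowest lung from its nearest neighbour was expressed as a share of the range over the 4 lungs of its group. Members were read in CPM and lists in mean log2 CPM. Of 60 such groups 9 exceeded the critical value of 0.829, which chance exceeds in about 5% of independent groups. The 60 come from the same 8 lungs and count the members beside their own mean. They are thus not independent, and the 9 cannot be weighed against that 5%. Control mouse 4 was the lowest lung, apart from the other Control mice, for Ager (0.872), Hopx (0.863), Igfbp2 (0.920) and the mean of the endothelial markers (0.907). TTI-101 mouse 2 was apart from its group as the lowest lung in the mean of the other AT1 genes (0.901) and of the leukocyte markers (0.890), and as the highest in the mean of the alveolar fluid transport genes (0.908) and of the ciliated cell markers (0.948). TTI-101 mouse 3 was the highest lung, apart from its group, in the mean of the mesothelial markers (0.872).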

How the results depend on the processing

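All 10 members stayed above an adjusted p of 0.05 under every alternative run. Pdpn ran from -0.015 without Control mouse 4 to 0.29 without TTI-101 mouse 2, and no other member changed sign. Over the settings that kept all 8 libraries, the members' median log2 difference was 0.43 to 0.48, with 9 higher and 1 lower, and leaving out 1 library gave 0.23 to 0.57. Genes with an adjusted p under 0.05 numbered 4 with DESeq2, 1 with the Xist covariate and 0 to 1 on leaving out 1 library, and none was a member. Genes at an unadjusted p under 0.05 numbered 1849 (5.81%) without a filter on low counts, 1689 (5.32%) with DESeq2 and 1098 (6.41%) with limma-voom. The settings without a filter and with DESeq2 kept 31830 genes, and limma-voom kept 17138. On leaving out 1 library they ran from 422 (2.42%, without TTI-101 mouse 3) to 2498 (14.2%, without TTI-101 mouse 2). In those settings 0 and 3 of the 10 members were at that p. On leaving out 1 library, the groups did not overlap in 0 to 3 of the 10 members. Over all genes this ran from 648 (3.69%, without Control mouse 4, with 1 member) to 2424 (13.8%, without TTI-101 mouse 2, with 3 members). With a replicate block the members' median was 0.46, with 0 members and 0 genes called and 1298 genes at an unadjusted p under 0.05. Deviations of mice with the same number correlated at 0.39, 0.08, 0.16 and 0.07, and not every mouse correlated best with its own number (Control mouse 4 with TTI-101 mouse 2, 0.17), so the numbers were not read as pairs. With 4 mice a group, the members' intervals leave both signs possible.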
